A study of Bos taurus with 15 samples.

Results

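The genes described here are 9 genes of mTOR signalling and translation control in bovine biceps brachii: MTOR, EIF4EBP1, RPS6KB1, AKT1, AKT2, EIF4E, RHEB, TSC2 and PIK3R1. Their probes were found by the array's gene name, by its gene identifier or by the human symbol in its description, which gave 15 probes for the 9 genes. In all, 20894 probes were tested, and those with a gene name stood for 15099 genes. The brightest probe of a gene represents it, and every other probe is given as well. The brightest probes of MTOR, RPS6KB1 and PIK3R1 carry the gene's symbol in their description alone, while the second MTOR probe, which is at background, has the older symbol FRAP1 as its gene name.

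RNA of the muscle was hybridised to Agilent bovine arrays of 1 colour, on which the brightness of a probe follows the amount of its transcript, with 1 array per animal. The 8 prednisolone animals (P25 to P32) received 30 mg of prednisolone, a synthetic glucocorticoid, per head and day by mouth for 35 days, and the 7 control animals (C17 to C24, without a C19) are labelled CONTROL. The controls' treatment text lists Finaplix, Revalor, and Revalor combined with dexamethasone, another glucocorticoid, without saying that any of these 7 animals was given them. RNA was prepared with TRIzol and an RNeasy MinElute cleanup in the prednisolone group and with an RNeasy Mini kit in the control group, so treatment and preparation cannot be told apart. The series text calls the animals cows, and breed and age are not given in the sources used here.

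As background, the kinase mTOR is the catalytic part of the complex mTORC1, which links insulin, growth factors and amino acids to protein synthesis. Insulin receptors act through PI3-kinase and AKT, AKT restrains the TSC1-TSC2 complex, and the small GTPase RHEB, freed from that restraint, activates mTORC1. Active mTORC1 phosphorylates S6 kinase and the 4E-binding proteins, which then release the cap-binding protein eIF4E. In rodent muscle, glucocorticoids are known to dampen this route, partly through induced genes such as DDIT4 and KLF15, and most of the route's regulation lies in phosphorylation, which an RNA array does not measure.

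None of the 9 genes passed the test between prednisolone and control muscle. The estimates were positive for 7 genes (higher in prednisolone muscle) and negative for 2, RPS6KB1 and PIK3R1. They had a median of 0.026 on the log2 scale, against 0.0099 over all 15099 genes, of which 52.1% had a positive estimate. The estimate farthest above 0 was that of EIF4EBP1, at 0.31 log2 units, and the one farthest below was that of PIK3R1, at -0.36. With limma and Benjamini-Hochberg adjustment over all tested probes, 0 of the 9 genes were called at an adjusted p under 0.05, against 0% of all genes. At an unadjusted p under 0.05, limma gave 0 of the 9 genes, against 488 of 15099 genes (3.23%). In 0 of the 9 genes were the groups free of overlap, against 0.199% of all genes. All 9 of the 95% intervals excluded a doubling and a halving, with half-widths between 0.25 and 0.57 log2 units, against a median half-width of 0.45 over all genes.

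**Figure D1:**
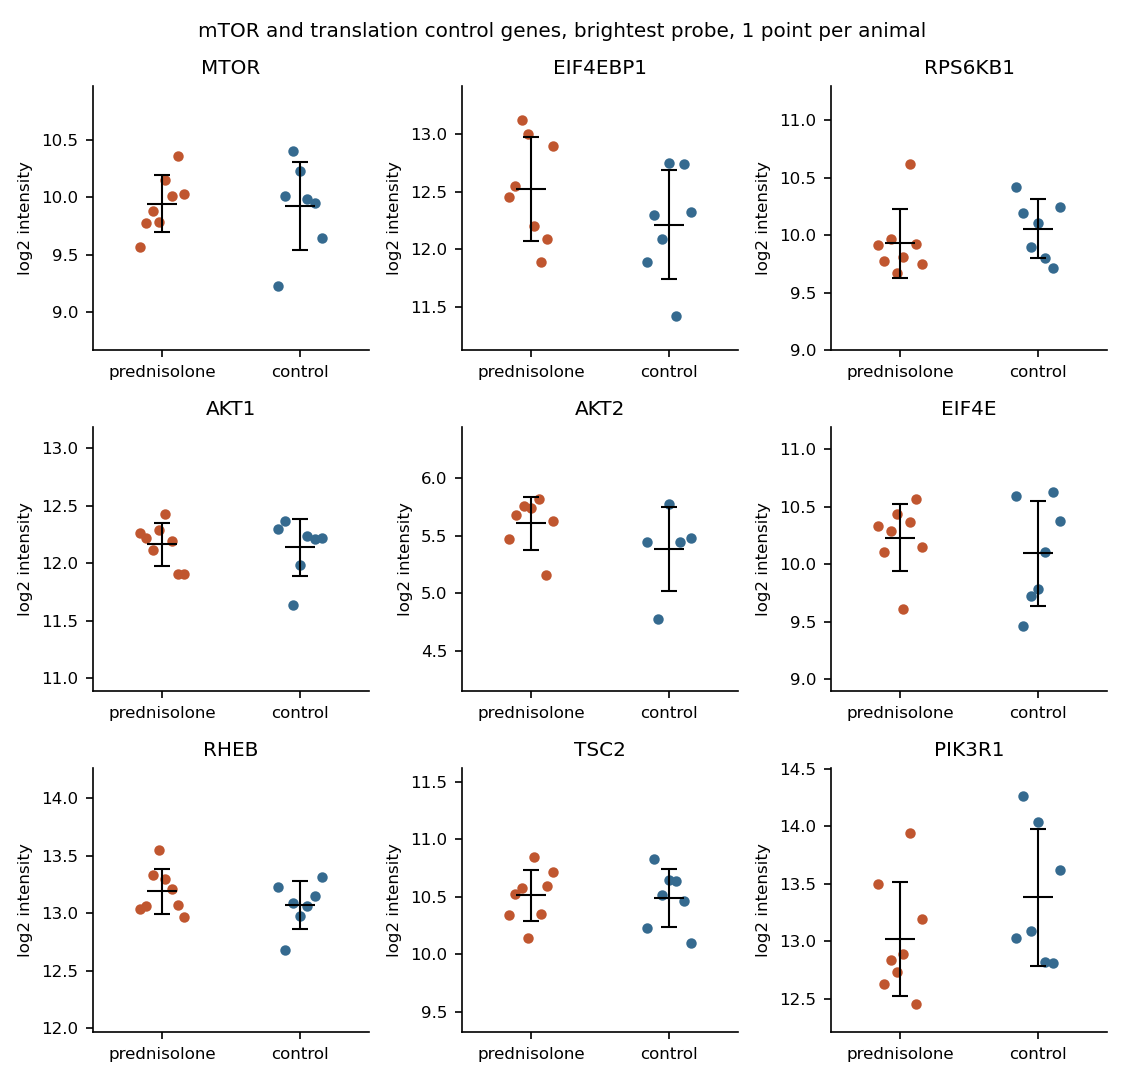
Each panel plots the log2 intensity of 1 gene's brightest probe, with 1 point per animal, for prednisolone (left) and control (right). Bars are the mean and SD, every panel spans the same 2.3 log2 units, and AKT2 has 7 prednisolone and 5 control values. The groups overlap in all 9 panels.

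Of the 15 probes, 12 were well above background, by the scanner software's flag, on all 8 prednisolone arrays, and these 12 include the probe that represents each gene. The second probe of TSC2 carried this flag on 1 array, and the second probe of MTOR and the fourth of PIK3R1 on none. The same flags of the control arrays were not used here. Values are log2 intensities after each array was shifted to a common 75th percentile, and since probes differ in brightness for reasons other than abundance, levels are compared between animals and not between genes. In bulk tissue, fewer cells of a type and less RNA per cell cannot be told apart.

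Upstream in the route, PIK3R1 encodes p85 alpha, the regulatory subunit that stabilises the catalytic subunit of PI3-kinase and docks it to insulin receptor substrates. Its brightest probe, A_73_101432, whose description names transcript variant 2, read 12.45 (P31), 12.86 and 13.94 (P30) as the lowest, median and highest log2 intensity in prednisolone muscle. In control muscle the same 3 values were 12.81 (C23), 13.09 and 14.26 (C18). The groups overlapped over most of their range: 5 of 8 prednisolone animals lay below the control median, while P30 lay near the top controls, C18 and C21. The means were 13.02 ± 0.49 (SD, n = 8) in prednisolone muscle and 13.38 ± 0.59 (SD, n = 7) in control muscle, a difference of -0.36 with a 95% interval of -0.94 to 0.21, which is a 0.778-fold level. The exact permutation test over the animals gave a two-sided p of 0.218. Without P30 the difference was -0.49, and without C18 it was -0.21.

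PIK3R1 has 2 further probes above background, and both lay closer to 0. A_73_112809, whose description names variant 1, averaged 9.34 ± 0.45 in prednisolone muscle (SD, n = 8) and 9.46 ± 0.65 in control muscle (SD, n = 7), a difference of -0.11 (95% interval -0.70 to 0.47). A_73_105509 averaged 7.22 ± 0.43 in prednisolone muscle (SD, n = 8) and 7.30 ± 0.78 in control muscle (SD, n = 7), a difference of -0.079 (-0.73 to 0.57). Across the 15 animals, with each value taken from its group mean, these 2 probes followed each other (Pearson r 0.78, permutation p = 0.00135, adjusted p = 0.00945; Spearman rho 0.82, permutation p = 0.00068, adjusted p = 0.00476, over 7 pairs of probes). The r was 0.78 within prednisolone and 0.79 within control animals, and 0.79 without C22 and P31. Neither passed adjustment with the brightest probe: r was 0.52 for A_73_112809 (permutation p = 0.0635, adjusted p = 0.222; rho 0.59, permutation p = 0.0303, adjusted p = 0.106) and 0.45 for A_73_105509 (permutation p = 0.131, adjusted p = 0.306; rho 0.54, permutation p = 0.0589, adjusted p = 0.137). Without C18 and C21 these r were 0.50 and 0.31. P30 was the highest prednisolone animal on the brightest probe, and P29 was the highest on the other two. The distance between the variant 2 probe and the variant 1 probe A_73_112809 did not pass an exact permutation test between the groups (difference -0.25, adjusted p = 0.671 over 7 pairs of probes). The fourth probe, A_73_113868, whose description also names variant 1, was at background. Its means were 1.36 ± 0.078 in prednisolone muscle (SD, n = 8) and 1.46 ± 0.18 in control muscle (SD, n = 7), so no fold is given for it.

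The AKT kinases carry the signal from PI3-kinase, AKT1 with known roles in growth and AKT2 in insulin-driven glucose uptake. AKT1 read 11.90 (P31), 12.20 and 12.43 (P29) as lowest, median and highest in prednisolone muscle, and 11.64 (C20), 12.22 and 12.37 (C18) in control muscle. The groups lay on top of each other apart from C20, which was below all others. The AKT1 difference was 0.026 (95% interval -0.24 to 0.29), or 1.02-fold, with an exact permutation p of 0.827. AKT2 read 5.16 (P31), 5.68 and 5.82 (P29) over the 7 prednisolone animals with a value, and 4.78 (C20), 5.45 and 5.77 (C21) over the 5 controls with a value. Of those 7 prednisolone animals 6 lay above the control median, and the ranges overlapped. The AKT2 difference was 0.22 (-0.17 to 0.61), with an exact permutation p of 0.236 over 792 splits. P30, C18 and C22 had no AKT2 value and were left out of its fit. The scanner flagged AKT2 as well above background on all 8 prednisolone arrays, P30 included, although P30 has no deposited value. On the prednisolone arrays, values were empty only where the scanner did not mark the spot as found. Both AKT2 spots had a value on 6 arrays, so the other AKT2 values rest on a single spot. Without C20 the difference was 0.070.

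TSC2, or tuberin, is the GTPase-activating subunit of the TSC complex, which switches RHEB off, and RHEB is the direct activator of mTORC1. TSC2 read 10.14 (P28), 10.55 and 10.84 (P29) in prednisolone muscle, against 10.10 (C24), 10.51 and 10.83 (C18) in control muscle. The 2 ranges were nearly identical. The TSC2 difference was 0.023 (95% interval -0.26 to 0.31), with an exact permutation p of 0.854. The other TSC2 probe, A_73_102333, had values on 5 prednisolone and 4 control arrays, with means of 1.72 and 1.46, at or near background, and no fold is given for it. RHEB read 12.96 (P32), 13.14 and 13.55 (P28) in prednisolone muscle, against 12.68 (C18), 13.09 and 13.31 (C24) in control muscle. P28 was above and C18 below all others, and 4 of 8 prednisolone animals lay above the control median. The RHEB difference was 0.12 (-0.13 to 0.37), or 1.09-fold, with an exact permutation p of 0.280.

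MTOR itself read 9.56 (P25), 9.95 and 10.36 (P31) in prednisolone muscle, against 9.23 (C17), 9.99 and 10.41 (C20) in control muscle. The controls enclosed the prednisolone animals on both sides. The difference was 0.021 (95% interval -0.34 to 0.38), or 1.01-fold, with an exact permutation p of 0.904. The second MTOR probe, A_73_115782, had values on 5 arrays of each group, none of the 8 prednisolone arrays flagged it well above background, and its means were 1.39 in prednisolone muscle and 1.80 in control muscle.

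RPS6KB1 encodes S6 kinase 1, which mTORC1 activates and which phosphorylates ribosomal protein S6 and other translation factors. Its brightest probe, A_73_113441, read 9.67 (P28), 9.86 and 10.62 (P30) in prednisolone muscle, against 9.71 (C23), 10.11 and 10.42 (C17) in control muscle. In prednisolone muscle 7 of 8 animals lay below the control median, and P30 lay above every control. The difference was -0.13 (95% interval -0.45 to 0.20), with an exact permutation p of 0.403, and without P30 it was -0.22. The second probe, A_73_104270, which was also above background on all 8 prednisolone arrays, read 6.15 (P32), 6.50 and 6.75 (P29) in prednisolone muscle, against 6.05 (C17), 6.33 and 6.52 (C24) in control muscle. Here 6 of 8 prednisolone animals lay above the control median, and C17, the highest control on the brightest probe, was the lowest. The difference of the second probe was 0.15 (-0.084 to 0.39), with an exact permutation p of 0.129.

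The 2 RPS6KB1 probes therefore had estimates of opposite sign, and no correlation between them passed the test across animals (Pearson r -0.22, permutation p = 0.454, adjusted p = 0.635; Spearman rho -0.18, permutation p = 0.537, adjusted p = 0.752, over 7 pairs of probes). The r was -0.19 within prednisolone and -0.25 within control animals, and 0.053 without P30 and C17. The distance between them was 3.46 ± 0.38 in prednisolone muscle (SD, n = 8) and 3.74 ± 0.35 in control muscle (SD, n = 7), a difference of -0.28 with an exact permutation p of 0.166 (adjusted p = 0.671 over 7 pairs of probes). No single direction can be given for RPS6KB1.

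**Figure D2:**
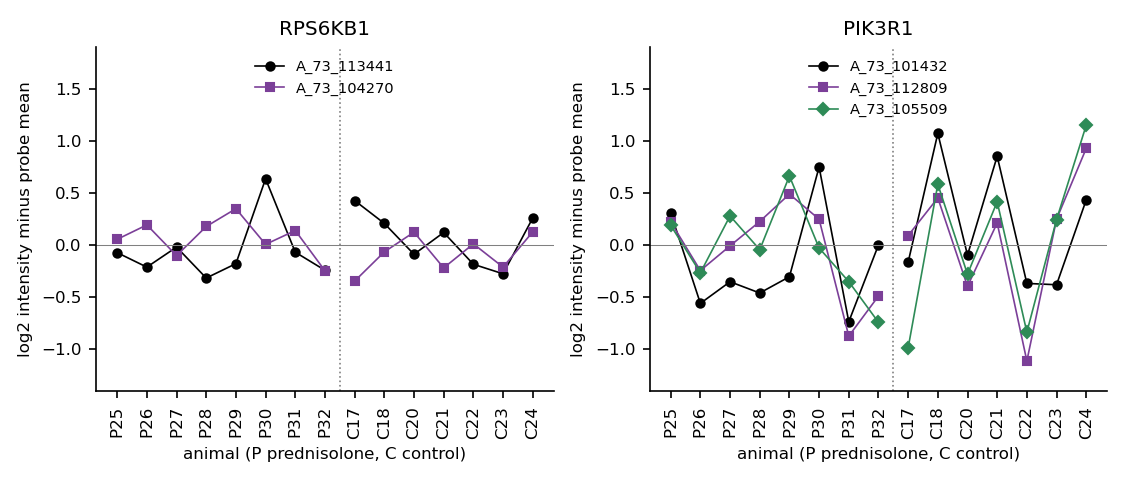
Log2 intensity minus the probe's mean over 15 animals is plotted against the animal, prednisolone left and control right of the dotted line, for the probes of RPS6KB1 and PIK3R1 that were above background. The 2 RPS6KB1 probes part most at P30 and C17 and do not follow each other in the other animals either (r = 0.053). The 2 dimmer PIK3R1 probes run close together (r = 0.78).

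EIF4E encodes the protein that binds the mRNA cap, and EIF4EBP1 encodes 4E-BP1, the repressor that holds it until mTORC1 phosphorylates the repressor. EIF4EBP1 read 11.88 (P30), 12.50 and 13.12 (P27) in prednisolone muscle, against 11.42 (C22), 12.30 and 12.75 (C21) in control muscle. P27, P28 and P32 lay above every control, C22 lay below every other animal, and the remaining animals were mixed. The means were 12.52 ± 0.45 (SD, n = 8) in prednisolone muscle and 12.21 ± 0.47 (SD, n = 7) in control muscle, a difference of 0.31 (95% interval -0.18 to 0.81), or 1.24-fold, with an exact permutation p of 0.215. Without C22 the difference was 0.18. EIF4E read 9.61 (P29), 10.31 and 10.57 (P31) in prednisolone muscle, against 9.46 (C18), 10.10 and 10.63 (C23) in control muscle. Of the prednisolone animals 7 of 8 lay above the control median, but all 8 fell inside the control range. The EIF4E difference was 0.14 (-0.28 to 0.55), with an exact permutation p of 0.493, and without C18 it was 0.032.

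**Figure D3:**
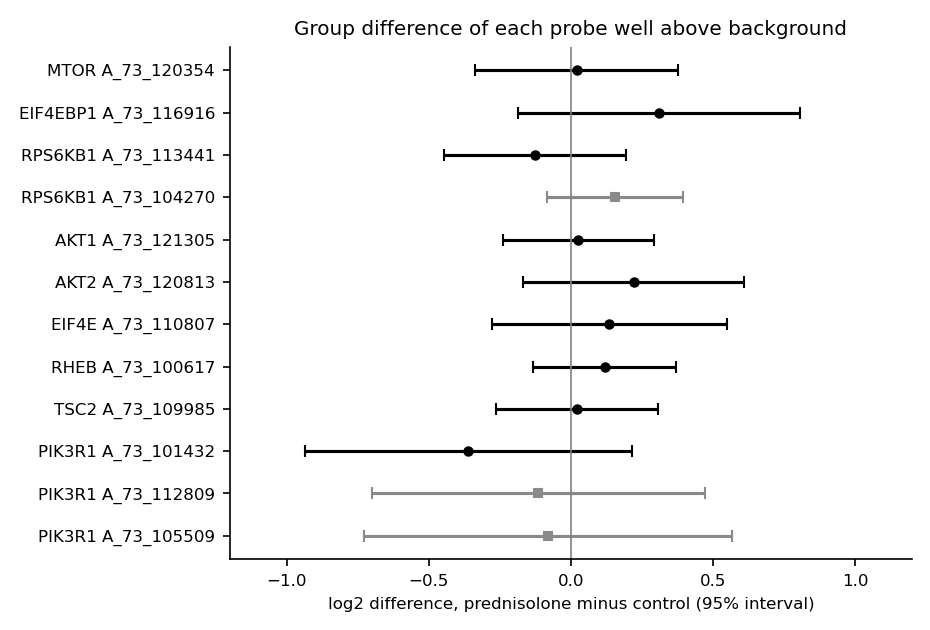
The prednisolone minus control difference in log2 intensity, with its 95% interval from limma, is plotted for the 12 probes well above background on all 8 prednisolone arrays. Black circles are the probe that represents a gene and grey squares are other probes. Every interval includes 0.

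Differences within an array were also compared for 3 pairs, a repressor and its target, a restraint and its target, and the AKT isoforms, and a shift common to the array cancels in them. EIF4EBP1 minus EIF4E averaged 2.29 ± 0.52 in prednisolone muscle (SD, n = 8) and 2.12 ± 0.66 in control muscle (SD, n = 7), a difference of 0.18. TSC2 minus RHEB averaged -2.68 ± 0.35 in prednisolone muscle (SD, n = 8) and -2.58 ± 0.45 in control muscle (SD, n = 7), a difference of -0.096. AKT1 minus AKT2 averaged 6.55 ± 0.19 in prednisolone muscle (SD, n = 7) and 6.68 ± 0.27 in control muscle (SD, n = 5), a difference of -0.13. The sizes of these distances include the brightness of the probes, so only their change between groups is read. The 2-sided exact permutation p was 0.566 for the first, 0.652 for the second and 0.338 for the third, and all 3 had an adjusted p of 0.652 over the 3 comparisons.

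The genes differed in how far the animals spread. Over all 15 animals the highest value was 3.50-fold the lowest for PIK3R1 and 3.25-fold for EIF4EBP1. The span was 2.26-fold for MTOR, 2.24-fold for EIF4E, 2.06-fold for AKT2 over 12 animals, 1.93-fold for RPS6KB1, 1.82-fold for RHEB, 1.73-fold for AKT1 and 1.68-fold for TSC2. The reference was the 9957 genes with values on all 15 arrays and well above background on all 8 prednisolone arrays. Their median SD within groups was 0.34 log2 units. Among them, PIK3R1 stood at the 82.1st percentile of SD and EIF4EBP1 at the 73.8th. RHEB stood at the 10.0th, AKT1 at the 14.2nd and TSC2 at the 20.6th. For the spots alone, the SD between the duplicate spots of a probe on 1 array was 0.035 log2 units for EIF4EBP1, 0.072 for PIK3R1 and 0.082 for RHEB.

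Whether the 9 genes varied together was looked at over the 8 that have values on all 15 arrays, as 28 pairs with each value taken from its group mean. No pair passed Benjamini-Hochberg adjustment over the 28, and 5 had an unadjusted permutation p under 0.05 for Pearson's r. The share of such pairs among all genes is not given here, so the 5 cannot be set against it. EIF4E and TSC2 ran opposite to each other, with r -0.71 (p = 0.00483, adjusted p = 0.135) and Spearman rho -0.72 (p = 0.0064, adjusted p = 0.0896). The r was -0.67 within the prednisolone animals and -0.76 within the controls, and -0.52 over all animals without C18 and P29, which had the highest TSC2 and the lowest EIF4E of their groups. RHEB and TSC2 had r -0.66 (p = 0.0105, adjusted p = 0.147) and rho -0.59 (p = 0.0268, adjusted p = 0.217). The r was -0.40 within prednisolone animals and -0.92 within controls, a difference that was not tested, and it was -0.35 without P28 and C18. MTOR and TSC2 ran together, with r 0.62 (p = 0.0208, adjusted p = 0.147) and rho 0.71 (p = 0.00616, adjusted p = 0.0896), and r was 0.53 without C17 and P25.

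The other pairs were RPS6KB1 with PIK3R1, at r 0.61 (p = 0.021, adjusted p = 0.147) and rho 0.60 (p = 0.0309, adjusted p = 0.217), and MTOR with AKT1, at r -0.59 (p = 0.0415, adjusted p = 0.233) and rho -0.45 (p = 0.109, adjusted p = 0.434). Without P30 and C17 the first r was 0.68, and without C17 and P25 the second was -0.61. The 2 genes of a pair were read on the same array, so they share its RNA quality and its scaling. With quantile normalization r was -0.53 for EIF4E with TSC2 (permutation p = 0.0682), -0.37 for RHEB with TSC2 (permutation p = 0.231) and 0.75 for MTOR with TSC2 (permutation p = 0.0019).

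**Figure D4:**
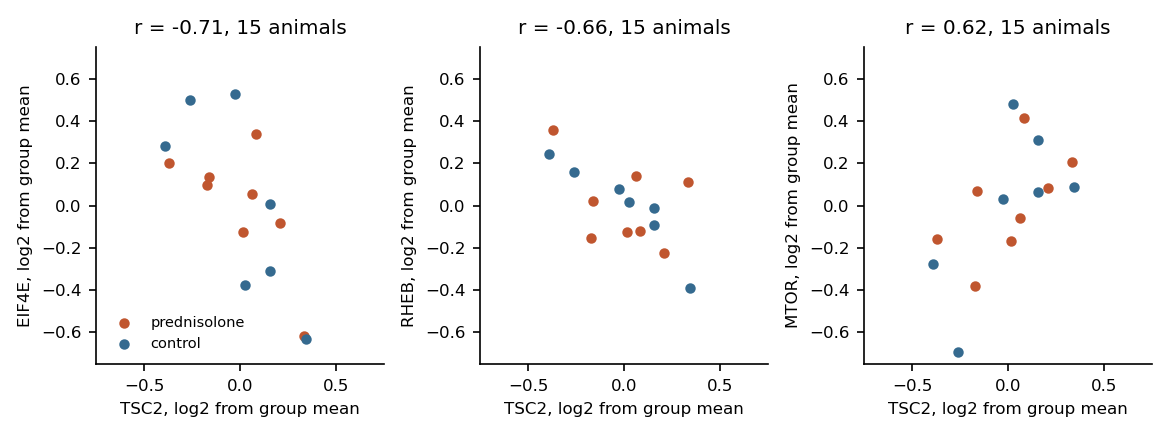
Log2 intensity from the group mean is plotted for EIF4E, RHEB and MTOR against TSC2, with 1 point per animal, prednisolone in orange and control in blue. Pearson r over 15 animals is -0.71, -0.66 and 0.62, and no pair passed adjustment over 28 pairs.

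Across the 9957 bright genes, the profile over the 15 animals most like each member's was as follows, as a description without a test. PIK3R1 was closest to TMEM87A (r = 0.97) and MBNL1 (0.90), and MTOR to SF3A1 (0.94) and PAF1 (0.91). The PIK3R1 profile is that of its brightest probe, which had r of 0.52 and 0.45 with the gene's other probes above background. AKT1 was closest to CDK16 (0.94) and ZCCHC12 (0.92), EIF4E to SNX2 (0.94) and RBM7 (0.93), and TSC2 to SEC24C (0.92) and DCTN1 (0.91). RHEB was closest to UBL5 (0.91) and C14ORF2 (0.91), and RPS6KB1 to CDC16 (0.88) and HP1BP3 (0.88). The RPS6KB1 profile is likewise that of its brightest probe, which had r -0.22 with the gene's other probe. For EIF4EBP1, TBL1XR1 reached 0.77, and 0 genes exceeded 0.8 with it, against 67 for TSC2 and 62 for MTOR. The genes were read on the same arrays and share their RNA quality, so they are not independent here.

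The surrounding route was read from 8 lists of 137 genes, of which 129 were measured and 114 were well above background on all 8 prednisolone arrays. Estimates were positive for 71 genes and negative for 58, with a median of 0.015 log2 units, against 0.0099 over all genes. With limma 0 of the 129 genes were called after adjustment and 1 had an unadjusted p under 0.05, which was lower in prednisolone muscle, against 1.6% of all genes in that direction. None was in the other direction, against 1.63% of all genes. By list, the medians ran from -0.065 for the S6 kinases and their targets (3 positive and 4 negative of 7) to 0.042 for the cap-binding genes (11 positive and 5 negative of 16).

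**Figure D5:**
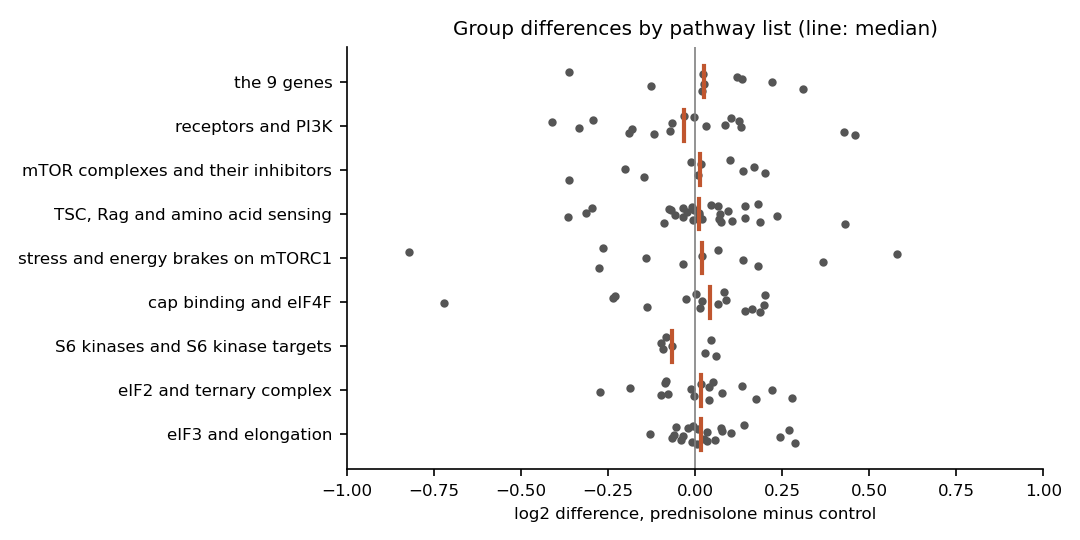
The prednisolone minus control difference in log2 intensity is plotted for each measured gene of the 9 genes and of the 8 lists, with 1 dot per gene and the median as an orange line. The medians lie between -0.065 and 0.042, and the dot farthest to the left is TXNIP at -0.82.

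The gene under that unadjusted threshold was TXNIP, a brake on glucose uptake that AMP-activated kinase targets, here listed among the stress and energy brakes. TXNIP averaged 11.43 ± 0.48 in prednisolone muscle (SD, n = 8) and 12.25 ± 0.29 in control muscle (SD, n = 7), a difference of -0.82 (95% interval -1.26 to -0.39) with a limma adjusted p of 0.993. All 8 prednisolone animals lay below the control median, though the ranges overlapped, the highest prednisolone value being 11.95 and the lowest control value 11.85. The list held 11 measured genes, 6 positive and 5 negative. DDIT4 and KLF15 are brakes known to be induced by glucocorticoids. DDIT4, or REDD1, which acts on mTORC1 through TSC2, averaged 13.99 ± 0.646 in prednisolone muscle (SD, n = 8) and 14.26 ± 0.998 in control muscle (SD, n = 7), a difference of -0.28 (-1.14 to 0.58). KLF15, a transcription factor that drives amino acid breakdown, averaged 6.10 ± 0.91 in prednisolone muscle (SD, n = 8) and 6.13 ± 0.87 in control muscle (SD, n = 7), a difference of -0.034. STK11, or LKB1, the kinase that activates AMP-activated kinase, had an estimate of 0.37 (-0.026 to 0.76).

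Among the TSC, Rag and amino acid genes, 16 of 29 were positive. TSC1, or hamartin, the partner that stabilises TSC2, averaged 8.61 ± 0.23 in prednisolone muscle (SD, n = 8) and 8.18 ± 0.55 in control muscle (SD, n = 7), a difference of 0.43 with an interval of -0.010 to 0.87. All 8 prednisolone animals lay above the control median, inside the control range of 7.34 to 8.99. The lists and the 9 genes together held 125 genes with values on all arrays. Of these, 2 had all 8 prednisolone animals above the control median, TSC1 and EIF4EBP2, against 2.1% of all genes with such values. Likewise 2 had all 8 below, TXNIP and EIF2AK4, against 1.52% of all such genes. FLCN, or folliculin, which acts on the Rag GTPases, had an estimate of 0.24 (-0.061 to 0.53) and 0.22 on its other probe. SLC7A5, the large neutral amino acid transporter, had -0.30 with an interval as wide as -1.51 to 0.92. SESN1, a leucine-responsive sestrin, was well above background on 2 of 8 prednisolone arrays and is given no fold.

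Among the receptor and PI3-kinase genes, 7 of 17 were positive and 10 negative. INSR, the insulin receptor, had an estimate of 0.46 (-0.25 to 1.17), and IGF1R, the receptor of insulin-like growth factor 1, one of -0.12 (-0.99 to 0.76). IRS1, their main substrate in muscle, had -0.19 (-0.62 to 0.24). PIK3CA, the catalytic partner of the PIK3R1 product, had -0.072 (-0.37 to 0.23).

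Of the 10 genes of the mTOR complexes and their inhibitors, 6 were positive. RPTOR, which recruits substrates to mTORC1, had a difference of -0.36 (-0.97 to 0.25) over 8 prednisolone and 6 control animals. AKT1S1, or PRAS40, an inhibitor that AKT relieves, had 0.17 (-0.084 to 0.42), and PRR5, a subunit of mTORC2, had 0.14 (-0.20 to 0.48). DEPTOR, an inhibitor of both complexes, was well above background on none of the 8 prednisolone arrays and is given no fold.

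Among the cap-binding genes, EIF4G1, the scaffold of the eIF4F complex, had an estimate of 0.16 (-0.30 to 0.63) and EIF4A1, its helicase, one of 0.20 (-0.086 to 0.48). EIF4EBP2, the second 4E-binding protein, had 0.19 (-0.25 to 0.63), and MKNK2, which phosphorylates eIF4E, had -0.027 (-0.39 to 0.33). EIF4B, a cofactor of the helicase and a target of S6 kinase, had -0.72 with a wide interval (-1.89 to 0.46), since its values ran from 4.97 to 8.76 in prednisolone muscle and from 5.95 to 8.62 in control muscle. Among the S6 kinase genes, RPS6, the classic substrate, had 0.030 (-0.23 to 0.29), EEF2K, the kinase that inactivates eEF2, had 0.047 (-0.33 to 0.43), EEF2 itself had -0.082 (-0.30 to 0.13) and POLDIP3 had -0.092 (-0.32 to 0.14).

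In the eIF2 list, 9 of 17 genes were positive. The subunits of eIF2, which brings the initiator tRNA to the ribosome, had estimates of 0.040 (-0.20 to 0.28) for EIF2S1, with -0.11 on its other probe, 0.18 (-0.034 to 0.39) for EIF2S2 and 0.28 (-0.056 to 0.61) for EIF2S3, and the other EIF2S3 probe had 0.28 too. EIF2AK4, or GCN2, the kinase that senses uncharged tRNA, is named for its place below the control median, which was seen in the data; it had -0.19 (-0.59 to 0.21), with -0.54 and -0.22 on its other probes. In the eIF3 and elongation list, 13 of 22 were positive. EIF3B, a core subunit of eIF3, had 0.29 (-0.00069 to 0.57), and EEF1A2, the elongation factor of mature muscle, had 0.27 (-0.057 to 0.59).

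The tissue was checked through marker lists. Of 20 skeletal muscle fibre markers 17 were measured, all 17 were well above background on all 8 prednisolone arrays, and their score, the mean log2 value from the overall mean, ran from -0.28 to 0.18 in prednisolone and from -0.27 to 0.24 in control muscle. Each score takes only the markers with values on all 15 arrays. These were 17 for muscle fibre, 11 for germ cells, 6 for thymocytes and 6 for hepatocytes. Testis germ cell markers were measured for 19 of 20 genes, 4 of them well above background on all 8 prednisolone arrays and 1 on none, and their score ran from -2.85 to 3.44 (P31) in prednisolone and from -1.23 to 4.09 (C20) in control muscle. The mean germ cell score was -0.96 in prednisolone and 1.10 in control muscle (exact permutation p = 0.0797), and its part in the group differences was not tested beyond the correlations and the values without C20 and P31 given next. Among these markers, the sperm protamine gene PRM1 ran from 2.25 (P27) to 17.8 (C20) over the 15 animals. Thymocyte markers were measured for 9 of 12 genes, with a score from -2.24 to 3.28 (P30) in prednisolone and from -1.96 to 4.52 (C17) in control muscle. Hepatocyte markers were measured for 14 of 14 genes, with a score from -0.67 to 1.65 (P26) in prednisolone and from -1.10 to 0.64 (C20) in control muscle.

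The animals highest in the germ cell score were at the edge of several members: P31 and C20 had the highest MTOR and the lowest AKT1 and AKT2 of their groups. Over 32 pairs of 8 members and 4 scores, no correlation passed adjustment and 3 had an unadjusted p under 0.05. They were AKT1 with the germ cell score (r -0.62, p = 0.0145; rho -0.58, p = 0.0343; adjusted p = 0.338 and 0.547), MTOR with the same score (r 0.59, p = 0.0211; rho 0.45, p = 0.110; adjusted p = 0.338 and 0.547) and RPS6KB1 with the hepatocyte score (r -0.54, p = 0.0420; rho -0.51, p = 0.0509; adjusted p = 0.448 and 0.547), all by permutation within groups. Without C20 and P31 the first r was -0.25 and the second 0.30. Leaving out the 2 most extreme scores also narrows the range, so this does not show that either correlation rests on those 2 animals. Within groups, AKT1 had -0.58 in prednisolone and -0.69 in control muscle, and MTOR had 0.77 in prednisolone and 0.48 in control muscle. Without both animals the differences were 0.042 for MTOR, -0.020 for AKT1 and 0.14 for AKT2. The 2 highest RPS6KB1 values, in P30 and C17, belong to the animals highest in the thymocyte score; r was 0.42 with them and -0.42 without them.

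Array quality was followed through the share of spots with a value, which was 72.1% on C17 and 87.4% on C20, the lowest and highest of the 15 arrays. Over 8 members, no correlation with this share passed adjustment, and r ran from -0.52 (RPS6KB1, permutation p = 0.0457, adjusted p = 0.294; rho -0.39, permutation p = 0.190) to 0.49 (MTOR, permutation p = 0.110, adjusted p = 0.294; rho 0.22, permutation p = 0.468). Without C17 and C20 these were -0.39 and -0.081. The prednisolone arrays lay on 5 slides scanned on 3 days, with 3 slides holding a pair; animals on the same slide were closer than animals on different slides for 4 of 8 members. A slide effect on the group difference was not tested, since the controls' slides were not used here.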

How the data were processed

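Biceps brachii RNA of 8 prednisolone and 7 control cattle was measured on 1-colour arrays. The deposited table holds 1 intensity per spot and array, which the authors took from Agilent Feature Extraction, version 9.5.1.1 per the file headers of the 8 prednisolone arrays. R 2.11.1 is named in the submitters' processing notes. How arrays were scaled to each other: not given in the sources used here. On the 8 prednisolone arrays, table and scanner intensity correlated with r of 0.999789 or more over spots, and the control arrays were not checked.

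Here log2 values of duplicate spots were averaged and each array was shifted to a common 75th percentile over 14324 probes with values on all arrays (75th percentiles were 10.56 to 10.76 before). Of 21475 probes, 17072 were given a gene name. Probes with at least 3 values per group were tested with limma 3.58.1 in R 4.3.3 (lmFit, eBayes) and Benjamini-Hochberg adjustment, after a check on simulated data. Single values were tested by exact permutation over 6435 splits of 8 against 7 (smallest p 0.000155), and correlations by 100000 permutations within groups. The number of arrays limits the precision. The labels number 1 animal per array, and p-values measure the spread between these samples.

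The members, lists and tests were chosen with earlier results of these data known. Genes are named as members, as fixed pathway genes, as the 2 smallest p in each list, or as the 2 profiles most like a member's; EIF2AK4, EIF2S1, PZP and ZNF696 were named after their values were seen. Some genes that this rule names are not reported here. Probe sequences and genome coordinates were not used here.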

Additional observations from a re-analysis of the deposited data

Results flagged for a closer look

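Of 24 groups of 4 to 10 animals examined for 1 value far from the rest, 2 had one, and chance gives such a value in about 1 in 20 groups. In prednisolone muscle, RPS6KB1 in P30 read 10.62, and its gap to the next animal was 0.688 of the group's range. P30 also had the highest thymocyte score of the prednisolone animals, 3.28, and its part in the result was not tested. In control muscle, AKT1 minus AKT2 in C21 was 6.21, with a gap of 0.808 of the range over the 5 controls that had an AKT2 value.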

How the results depend on the processing

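Calls among the 9 genes and among the listed genes stayed at 0 under every alternative run: other scalings, an offset of 50, filters on dim probes, array weights, trend and robust eBayes, the mean of all probes, stricter names and leaving out animals. Over all genes the count was 0, and 1 without C20 and P31 or without P31 alone (PZP), while leaving out 1 animal at a time gave 0 to 1, the 1 without C23 being ZNF696. PZP was well above background on 3 of 8 prednisolone arrays and ZNF696 on 6. Scalings moved the median of all genes by less than 0.1, to between -0.0018 and 0.047, and kept 7 positive and 2 negative estimates.

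Signs turned for MTOR, AKT1, TSC2 and RPS6KB1. With array weights MTOR was -0.038, AKT1 -0.00023 and TSC2 -0.0075. With the mean of all probes RPS6KB1 was 0.014 and TSC2 -0.13, with the second TSC2 probe present on 5 prednisolone and 4 control arrays. With stricter names other probes stood for RPS6KB1, 0.15, for PIK3R1, -0.079, and for MTOR. The MTOR value of -0.40 comes from a probe well above background on none of the prednisolone arrays and is no measured change of MTOR. Without C20 and P31, AKT1 was -0.020. Leaving out 1 animal at a time, MTOR ran from -0.092 to 0.10, AKT1 from -0.056 to 0.067, TSC2 from -0.040 to 0.082 and TSC2 minus RHEB from -0.20 to 0.026. Over the same omissions the other members kept their sign, with ranges of 0.18 to 0.40 for EIF4EBP1, -0.22 to -0.063 for RPS6KB1, 0.070 to 0.32 for AKT2, 0.032 to 0.22 for EIF4E, 0.056 to 0.16 for RHEB and -0.49 to -0.21 for PIK3R1. AKT2 was 0.40 with quantile normalization and 0.11 with the offset, and AKT1 minus AKT2 was -0.32 and -0.020 under the same settings. With array weights PIK3R1 was -0.21, RPS6KB1 -0.055 and EIF4E 0.049, and with the mean of all probes PIK3R1 was -0.16, MTOR 0.27 and TSC2 minus RHEB -0.24. The mean of all probes takes, on each array, only the probes with a value there. The background MTOR probe had values on 5 arrays of each group. The means of MTOR and TSC2 therefore also move with which arrays hold the dim probe, and 0.27 is no measured change of MTOR. Leaving out 1 animal, EIF4EBP1 minus EIF4E ran from 0.037 to 0.32 and AKT1 minus AKT2 from -0.25 to -0.086. Apart from this feature of the probe means, the cause of these moves was not tested.

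The pair correlations, whose alternatives were chosen after seeing the data, ran over single animals left out from -0.78 to -0.64 for EIF4E with TSC2, from -0.82 to -0.56 for RHEB with TSC2 and from 0.56 to 0.68 for MTOR with TSC2. With equal medians RHEB with TSC2 was -0.44. AKT2 has no value under filters that ask for values on all arrays. No paired analysis was possible because the groups share no replicate numbers. Slide as a block and another background correction were not run, because only the prednisolone arrays' scanner files were used.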
